A study of Mus musculus with 3 samples.

Results

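The 9 genes described here, Ccl2, Ccl7, Ccl8, Ccl12, Ccl3, Ccl4, Ccl6, Ccl9 and Ccl24, encode CC chemokines that macrophages are known to secrete. They were taken by symbol from the 31053 genes of the count matrices, and all 9 were found there. Their transcripts were followed in leukocytes of the stomach's muscle layer, across macrophages and their subsets, monocytes, dendritic cells, mast cells and lymphoid cells. No member and no other chemokine ligand was used to assign cells to a class.

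CC chemokines are small secreted proteins that guide leukocytes along concentration gradients through G protein-coupled receptors. Ccl2, Ccl7 and Ccl12 are monocyte chemoattractants that act through Ccr2, the receptor by which monocytes leave the bone marrow and enter tissue. Ccl3 and Ccl4 are macrophage inflammatory proteins that attract several kinds of leukocyte, Ccl6 and Ccl9 are rodent ligands of Ccr1, mouse Ccl8 acts on Ccr8, and Ccl24 is an eotaxin that draws eosinophils through Ccr3. In gut muscle, resident macrophages lie among smooth muscle cells and enteric nerves and are replenished to a varying degree from blood monocytes.

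The cells were CD45+ leukocytes of female C57bl/6 mice, freed from gastric muscle by type II collagenase and profiled as single cells. All 3 libraries belong to the group NonDiabetic, so classes of cells were compared within libraries and no groups of animals. Age and treatment are not labelled. Whether each library is a different animal is not labelled either, and the p-values below may thus reflect technical spread alone. The series concerns the composition and possible origin of muscularis macrophages in healthy and diabetic mice; diabetic samples were not analysed here.

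Replicates 1, 2 and 3 held 881, 2839 and 2015 barcodes, of which 522, 1692 and 1216 had at least 1000 UMIs (unique molecular identifiers, 1 per captured transcript) and at most 15% mitochondrial UMIs. Of these, 214, 1145 and 766 were classed as macrophages and 17, 41 and 16 as monocytes. Summed over 12 macrophage markers, macrophages held 19964 to 30328 CPM (UMIs scaled to a common total per class and library) and monocytes 3585 to 5934 CPM, whereas monocyte markers reached 228 to 728 CPM in macrophages and 4028 to 6861 CPM in monocytes. Cells were assigned by these markers, so the sums describe the classes and do not test them. Replicate 2 stood apart in depth: 505 of its 1145 macrophages had under 2000 UMIs, against 17 of 214 and 84 of 766. Replicates 2 and 3 shared 33 barcodes, 30 of them with under 1000 UMIs in at least 1 of the 2 libraries, replicates 1 and 3 shared 1, and replicates 1 and 2 shared 0.

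In the mouse build GRCm38, which is mm10, the GENCODE annotation places 8 of the 9 genes on chromosome 11 within 1.629 Mb (chr11:82035571-83664683). Ccl2, Ccl7, Ccl12 and Ccl8 lie next to each other on the plus strand with Ccl11 between Ccl7 and Ccl12, and Ccl9, Ccl6, Ccl3 and Ccl4 follow 1456.12 kb further on. Ccl24 lies alone on the minus strand of chromosome 5 (chr5:135569937-135573049). Gm17268 overlaps Ccl2 on the opposite strand and held 0 UMIs in macrophages of every library, against 3512, 26858 and 5836 for Ccl2. Of the 30-base stretches of Ccl9 and Ccl6 transcripts, 3.95% and 1.08% also occur in transcripts of other genes, and 0.155% of those of Ccl24, while the other 6 genes share none.

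RefSeq promoters were at hand for 5 of the 9 genes (Ccl3, Ccl6, Ccl8, Ccl9 and Ccl12, build GRCm38.p6). The 250 bases before the start are shown for 2 pairs of neighbours, because Ccl12 and Ccl8 had the largest fold changes against monocytes and Ccl6 and Ccl9 moved together in every comparison below. Capitals mark letters that match a searched motif and, in Ccl6 and Ccl9, the longest run that both share. Positions count back from the base before the RefSeq start as -1.
Ccl12 (chr11:82101595-82101844, plus strand): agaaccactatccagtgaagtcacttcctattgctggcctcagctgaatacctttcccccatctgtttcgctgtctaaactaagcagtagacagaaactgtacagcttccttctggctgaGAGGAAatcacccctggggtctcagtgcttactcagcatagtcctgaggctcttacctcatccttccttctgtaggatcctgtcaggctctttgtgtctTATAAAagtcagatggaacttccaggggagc
Ccl8 (chr11:82114935-82115184, plus strand): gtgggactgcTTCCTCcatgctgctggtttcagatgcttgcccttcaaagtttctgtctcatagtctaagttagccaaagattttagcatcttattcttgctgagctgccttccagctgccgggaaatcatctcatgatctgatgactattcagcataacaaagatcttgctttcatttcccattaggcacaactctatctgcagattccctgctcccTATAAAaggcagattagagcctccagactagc
Ccl6 (chr11:83593088-83593337, minus strand): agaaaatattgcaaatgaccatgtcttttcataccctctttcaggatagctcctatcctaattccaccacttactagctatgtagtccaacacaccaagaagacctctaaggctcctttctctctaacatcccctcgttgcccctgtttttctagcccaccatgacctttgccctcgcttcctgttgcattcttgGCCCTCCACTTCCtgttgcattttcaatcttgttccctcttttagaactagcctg
Ccl9 (chr11:83578637-83578886, minus strand): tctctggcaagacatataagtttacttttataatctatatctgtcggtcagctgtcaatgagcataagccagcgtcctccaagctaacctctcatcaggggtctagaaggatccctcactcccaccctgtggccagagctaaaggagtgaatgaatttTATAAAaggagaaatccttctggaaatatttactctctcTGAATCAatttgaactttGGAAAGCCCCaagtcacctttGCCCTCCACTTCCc
Ccl12 and Ccl8 both held a TATA box (TATAAA, searched on the gene's strand) at -31 and -32, which 7.59% of 32851 RefSeq promoters of the same length hold. Both also held GAGGAA, a core recognised by the myeloid factor PU.1, on either strand, at -130 in Ccl12 and at -240 in Ccl8, and so did Ccl3 at -33; 23.3% of all promoters hold it, so these matches are common. The longest run that Ccl12 and Ccl8 share, ggaaatca, starts at -128 in both. Ccl9 held a match to the NF-kB consensus at -35, which 3.90% of promoters hold, and a TATA box at -92. At -53 it also matched TGANTCA, an AP-1-like pattern open to any centre base, here A, which 6.75% of promoters hold. Ccl6 matched none of the 6 motifs, which also included a C/EBP motif, TTGCNNAA (9.56% of promoters), and a palindromic STAT motif (5.85%), all but the TATA box searched on both strands. The run shared by Ccl6 and Ccl9, gccctccacttcc, has 13 bases and starts at -55 and -14; for the other pairs of these 5 promoters the longest run had 7 to 9 bases. A match describes letters and is no evidence of binding.

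The 9 genes together took 1.37% ± 0.64 (SD, n = 3) of all macrophage UMIs, or 1.15%, 2.10% and 0.873% in the order of the replicates. Monocytes gave 0.530% ± 0.134, type 2 dendritic cells 0.287% ± 0.0861 and ILC2 (group 2 innate lymphoid cells) 0.0159% ± 0.00739. Mast cells gave 1.17% and 0.419% in replicates 2 and 3, the 2 libraries with at least 15 mast cells. Macrophages therefore exceeded monocytes in every library, and the lowest macrophage library lay above the highest monocyte library. All levels are CPM of a class in a library. UMIs are read from the 3′ end and were not divided by transcript length, so levels are compared between cells and not between genes.

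**Figure D1:**
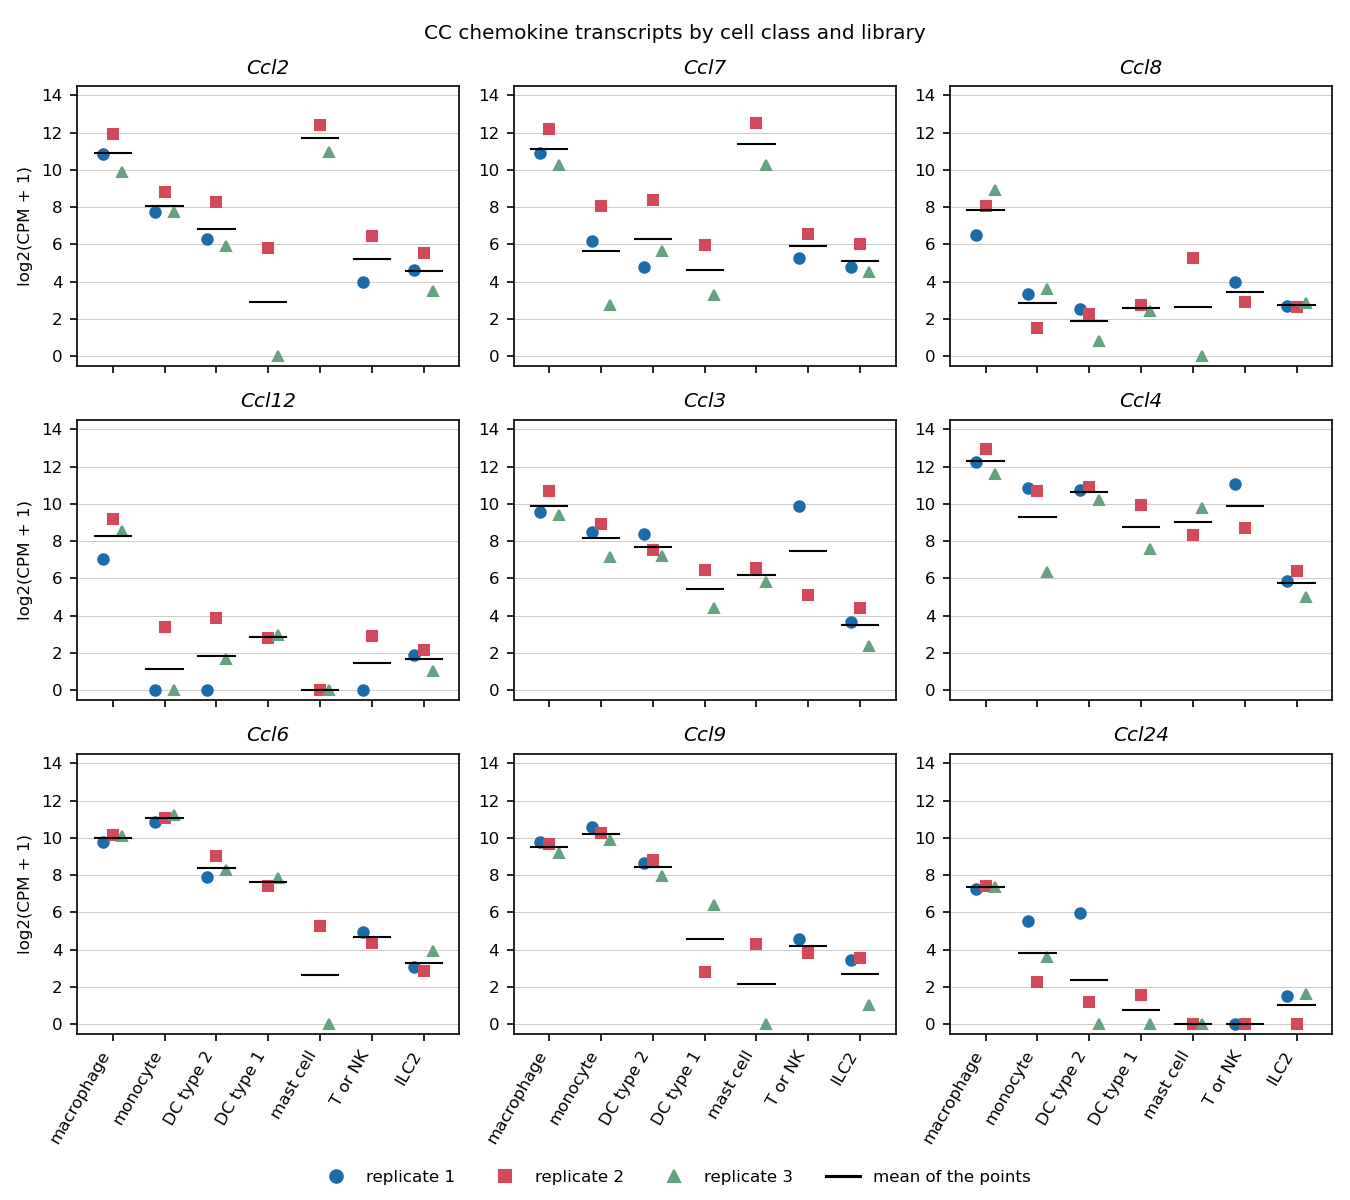
Levels of the 9 CC chemokine genes (panels) in 7 cell classes, as log2(CPM + 1) per library; each symbol is the sum over a class of at least 15 cells in 1 library and the black line the mean of the symbols. Ccl12 and Ccl8 are high in macrophages alone, Ccl6 and Ccl9 are highest in monocytes, and mast cells hold Ccl2 and Ccl7.

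The monocyte chemoattractants were first set against monocytes, the blood-derived cells that their receptor recruits. Macrophages held 7 of the 9 members at higher levels than monocytes and 2 at lower levels, and for all 9 the libraries of the 2 classes did not overlap, as was so for 27.6% of all genes tested. Over all 8157 genes tested, 15.8% were called in either direction, 8.88% higher and 6.91% lower in macrophages, by edgeR's quasi-likelihood test with the library as a block at an adjusted p under 0.05. The median log2 fold change of the members was 2.82, beside 0.04 over all genes.

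Ccl2, which attracts monocytes, stood at 1847, 3843 and 949 CPM in macrophages of replicates 1, 2 and 3 and at 209, 452 and 211 CPM in monocytes. The fitted log2 fold change was 2.82 ± 0.19 (SE; adjusted p 2.3e-07). Ccl7, a second ligand of Ccr2, was at 1916, 4632 and 1250 CPM against 72.8, 269 and 5.7 CPM, a log2 fold change of 4.61 ± 0.31. Replicate 2 was the highest library for both genes in both classes, and macrophages were above monocytes in 3 of 3 libraries.

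Ccl12, the third of the Ccr2 ligands, was at 131, 589 and 377 CPM in macrophages, and 5 UMIs were counted in all monocytes, all in replicate 2. Its log2 fold change was 6.33 ± 0.39, the largest of the 9, resting on these 5 UMIs; without replicate 2 the monocytes hold 0 UMIs and no fold is given. Ccl8, the Ccr8 ligand, was at 91.5, 270 and 490 CPM in macrophages and at 9.1, 1.9 and 11.4 CPM in monocytes, also from 5 UMIs, with a log2 fold change of 5.54 ± 0.42. The order of the libraries differed between the 2 genes, Ccl8 being highest in replicate 3 and Ccl12 in replicate 2.

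Ccl3 and Ccl4, the macrophage inflammatory proteins, were present in both classes. Ccl4 was at 4893, 7906 and 3137 CPM in macrophages and at 1879, 1627 and 79.7 CPM in monocytes (log2 fold change 2.57 ± 0.44, adjusted p 0.00102). Ccl3 was at 753, 1635 and 685 CPM against 359, 479 and 142 CPM (1.64 ± 0.21, adjusted p 9.1e-05). The low Ccl4 value came from the 16 monocytes of replicate 3. Without the library block Ccl3 and Ccl4 were not called (adjusted p 0.0569 and 0.109, edgeR), and by DESeq2 Ccl4 was not (adjusted p 0.0612).

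Ccl6 and Ccl9, the Ccr1 ligands, had the opposite direction. Ccl6 was at 1838, 2164 and 2378 CPM in monocytes and at 865, 1137 and 1105 CPM in macrophages, a log2 fold change of -1.05 ± 0.14 (adjusted p 0.000139). Ccl9 was at 1520, 1208 and 927 CPM against 872, 799 and 578 CPM, a log2 fold change of -0.71 ± 0.15 (adjusted p 0.00463). Monocytes lay above macrophages in 3 of 3 libraries for both. The 2 calls were lost when every cell was thinned to 1000 UMIs (adjusted p 0.124 and 0.373, edgeR), and that of Ccl9 also without the block (0.177) or without replicate 2 (0.0648). Ccl24, the eotaxin, was at 151, 173 and 162 CPM in macrophages against 45.5, 3.8 and 11.4 CPM in monocytes (3.32 ± 0.44), the macrophage libraries being closer together than for any other member. The monocyte values rest on 14 UMIs, 10 of them in replicate 1. Ccl24 was called in every setting run, at 2.41 without replicate 2 and 4.80 without replicate 1, which leaves 4 UMIs.

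The listed genes of related functions moved less evenly. Of 10 receptors and scavengers of these ligands 4 were tested and 0 were higher in macrophages, while Ccr2 was lower (-1.34 ± 0.22). Of 24 NF-kB and inflammatory genes 2 were higher, Cd83 (1.17 ± 0.28) and Tnf (1.00 ± 0.24), and 6 lower, led by Il6 (-2.47 ± 0.21) and Traf1 (-1.52 ± 0.22), with a list median of -0.31. Of 21 other chemokines 10 were tested, 5 higher and 1 lower. Pf4, the platelet factor also made by resident macrophages, was at 5.86 ± 0.31 and Cxcl3, which recruits neutrophils, at -1.35 ± 0.43, while Cxcl12 had 14.7, 15.3 and 17.9 CPM in macrophages and 0 UMIs in monocytes. Of 19 tested genes of alternative activation 12 were higher and 3 lower, including Lyve1 (6.87 ± 0.31) and Ear2 (-2.26 ± 0.29), beside Chil3, itself a marker used to assign monocytes. Among the higher genes Mrc1 and Clec10a were also markers used to assign cells, to macrophages and to type 2 dendritic cells.

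Immediate early and heat shock genes, which cell isolation is known to induce, differed between the same classes. Their summed level was 28176 to 35658 CPM in macrophages and 16022 to 19966 CPM in monocytes, and 15 of 27 were higher and 1 lower in macrophages, led by Egr1 (2.55 ± 0.28) and Atf3 (1.58 ± 0.29), with Dusp2 at -0.77 ± 0.23. Of these 27 genes only Jun, Fos and Egr1 were looked at for co-detection within macrophages. None of them was found with Ccl2, Ccl7, Ccl3 or Ccl4 at a log2 odds ratio above 0 in all 3 libraries. Cxcl2, Nfkbia and Tnf were found so with each of these chemokine genes. The part of isolation in the levels of the chemokines, or of Cxcl2, Nfkbia and Tnf, was not tested.

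**Figure D2:**
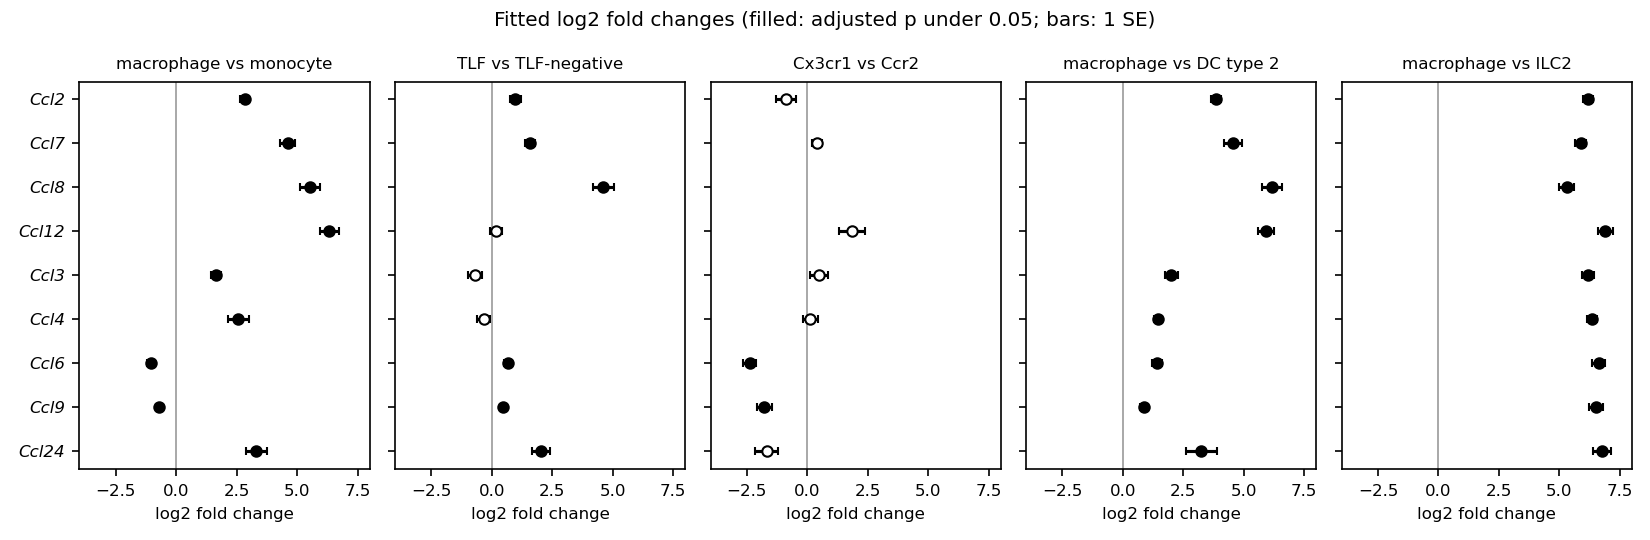
Fitted log2 fold changes (points, with bars of 1 SE) of the 9 genes in 5 comparisons of summed counts; filled points have an adjusted p under 0.05, and Ccl8 was not tested between Cx3cr1 and Ccr2 macrophages. All 9 points are filled and above 0 against type 2 dendritic cells and ILC2, and Ccl6 and Ccl9 are below 0 against monocytes and in Cx3cr1 against Ccr2 macrophages.

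Type 2 dendritic cells, another myeloid class of the tissue, held every member at a lower level than macrophages. The same macrophage sums entered this comparison and the one with monocytes, so the 2 are not independent. All 9 members were higher in macrophages, where 39% of 8895 genes were called and 20.1% were higher, and libraries did not overlap for any member, nor for 38% of all genes tested. The log2 fold changes were 6.15 ± 0.42 for Ccl8, 5.92 ± 0.35 for Ccl12, 4.54 ± 0.37 for Ccl7, 3.85 ± 0.22 for Ccl2 and 3.24 ± 0.66 for Ccl24. They were smaller for Ccl3 (1.99 ± 0.27), Ccl4 (1.45 ± 0.17), Ccl6 (1.41 ± 0.19) and Ccl9 (0.87 ± 0.16). Ccl4 is an example of a member that dendritic cells also held, at 1733, 1916 and 1203 CPM, and the order of its levels was macrophages, then type 2 dendritic cells and monocytes, whose libraries overlapped. Ccl24 rests on few dendritic cell counts, 77 of 79 UMIs being in replicate 1. Without the block Ccl9 was not called (adjusted p 0.0686, edgeR). The Ccr4 ligands Ccl17 (-5.74 ± 0.44) and Ccl22 (-4.66 ± 0.36) were the 2 other chemokines furthest below 0 in macrophages.

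ILC2, lymphoid cells that secrete type 2 cytokines, were the low reference. All 9 members were higher in macrophages, where 54.6% of 8979 genes were called and 29.2% were higher and 25.4% lower. Their libraries did not overlap, nor did those of 52.3% of all genes tested. The log2 fold changes lay between 5.29 ± 0.29 for Ccl8 and 6.90 ± 0.32 for Ccl12, a narrower range than against monocytes. In ILC2 the levels were 31.1 to 82.1 CPM for Ccl4, 21.8 to 64.4 CPM for Ccl7 and 10.4 to 45.9 CPM for Ccl2, each highest in replicate 2, the library that was also highest in macrophages. Ccr8, the receptor of Ccl8, showed the reverse pattern, with 88, 52 and 29 UMIs in ILC2 and 0, 3 and 0 in macrophages, or 80.0, 45.9 and 30.1 CPM against at most 0.43 CPM. Ccr3, the receptor of Ccl24, had at most 11.4 CPM in macrophages, monocytes or ILC2.

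Mast cells, granulated cells that release histamine, also had high Ccl2 and Ccl7. They numbered 8, 21 and 18, and no test was made. Ccl2 was at 1339, 5416 and 2004 CPM and Ccl7 at 328, 5750 and 1236 CPM in replicates 1, 2 and 3. After thinning every cell to 1000 UMIs, 87.5%, 95.2% and 83.3% of mast cells held a Ccl2 UMI, against 39.3%, 76.9% and 25.3% of macrophages. Ccl12 and Ccl24 had 0 UMIs in mast cells of all 3 libraries, and C1qa, a defining macrophage gene, was at 74 and 0 CPM in replicates 2 and 3, where macrophages had 3327 and 4495 CPM. Macrophages had to reach a limit on C1qa, C1qb and C1qc, and mast cells had to stay below it. The C1qa contrast was thus set by the gate. Summed macrophage markers reached 1304 to 1929 CPM in mast cells of these 2 libraries, and the part of macrophage RNA in these values was not tested. Mast cells gave 1.35%, 1.04% and 2.39% of the Ccl2 UMIs of classed cells and macrophages 89.5%, 95.9% and 95.3%.

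Type 1 dendritic cells held Ccl4 at 987, 983 and 187 CPM and every other member at 232 CPM or less. Some smaller groups also held a member. T or NK cells of replicate 1 had Ccl4 at 2106 CPM and Ccl3 at 932 CPM, where replicate 2 had 409 and 33.0 CPM, so these values rest on replicate 1. The 7 granulocytes held Ccl6 at 2141, 2349 and 4377 CPM. Fibroblasts, which the sort should have left out, had Ccl7 at 477 CPM and Ccl2 at 245 CPM in replicate 1, from 44 cells. Macrophages gave 98.8%, 99.2% and 99.6% of the Ccl12 UMIs of classed cells, but 69.1%, 79.2% and 87.6% of those of Ccl6, of which monocytes gave 17.0%, 11.2% and 5.4%.

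Within macrophages the members were compared between a resident-like subset and the rest. Macrophages with at least 2 UMIs of Timd4, Lyve1 and Folr2 together, genes that mark long-lived resident macrophages in other tissues, numbered 93, 484 and 405 and are called TLF here. Macrophages with 0 such UMIs numbered 105, 454 and 298, and those with 1 UMI were left out. The gate used counts before thinning, so shallow cells fell more easily into the group with 0. That group included 12, 225 and 52 cells that also had 0 UMIs of Cx3cr1 and Ccr2. TLF macrophages held 6 of the 9 members at higher levels and none at lower levels, where 17.8% of 9699 genes were called and 8.6% were higher and 9.25% lower. Libraries of the 2 subsets did not overlap for 3 members, Ccl8, Ccl6 and Ccl24, and for 22.3% of all genes tested. The median log2 fold change was 0.66 over the members and 0.00 over all genes. Monocyte markers summed to 102 to 319 CPM in TLF and to 371 to 1090 CPM in negative macrophages, and their part in the differences was not tested.

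Ccl8 differed most. It was at 200, 486 and 883 CPM in TLF macrophages and at 18.5, 27.1 and 9.9 CPM in negative ones, with no overlap and a log2 fold change of 4.62 ± 0.45 (adjusted p 0.00061, edgeR). Ccl24 was at 231, 272 and 276 CPM against 104, 75.3 and 20.2 CPM (2.04 ± 0.38, adjusted p 0.00907). The TLF libraries of Ccl24 were close together while the negative ones ran over a wide range, lowest in replicate 3.

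Of the Ccr2 ligands, Ccl7 was at 3553, 6020 and 1846 CPM in TLF and at 680, 2575 and 600 CPM in negative macrophages (1.59 ± 0.21, adjusted p 0.00179). Ccl2 was at 3245, 4536 and 1214 CPM against 874, 2764 and 715 CPM (0.96 ± 0.23, adjusted p 0.0223). TLF macrophages were higher in 3 of 3 libraries for both, although the 2 subsets overlapped across libraries, since the negative macrophages of replicate 2 lay above the TLF macrophages of replicate 3. Ccl12, the third, was at 182.5, 558 and 393 CPM against 75.1, 599 and 374 CPM and was not called (0.16 ± 0.24, adjusted p 0.701), and its sign turned in 3 alternative settings.

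Ccl6 was higher in TLF macrophages by a log2 fold change of 0.66 ± 0.17 (972, 1428 and 1492 against 800, 838 and 579 CPM, adjusted p 0.0341) and Ccl9 by 0.45 ± 0.13 (983, 928 and 732 against 782, 634 and 386 CPM, adjusted p 0.0407). The libraries of Ccl6 did not overlap and those of Ccl9 did. Ccl3 was at 883, 1324 and 420 against 674, 1987 and 1128 CPM (-0.70 ± 0.30, adjusted p 0.151) and Ccl4 at 6255, 7075 and 2414 against 4034, 8511 and 4560 CPM (-0.34 ± 0.26, adjusted p 0.421). These 2 genes were higher in TLF macrophages in replicate 1 and lower in replicates 2 and 3, and without replicate 1 both were called lower (-1.17, adjusted p 1.7e-09, and -0.77, adjusted p 1.2e-07). Both were also called lower with no filter on low counts, and Ccl3 when the subset was gated on Lyve1 alone.

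The calls of this comparison depended on the library block and on single libraries. Without the block only Ccl8 and Ccl24 of the 9 were called, without replicate 2 only Ccl7 and Ccl8 (adjusted p 0.0287 and 0.024), and without replicate 3 only Ccl7, Ccl8 and Ccl24. Ccl8 was called in every setting run, with log2 fold changes from 2.76 to 6.11.

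Of 19 tested genes of alternative activation 10 were higher, of which Lyve1 and Folr2 defined the subset, 3 were lower and 6 were not called. Cd209f, a C-type lectin, was at 5.11 ± 0.36 and Ear2, a ribonuclease, at -3.96 ± 0.33. Of 24 NF-kB and inflammatory genes 1 was higher, Ier3 (0.72 ± 0.16), and 8 were lower, led by Il1b (-2.20 ± 0.55) and Bcl2a1b (-2.19 ± 0.42). Of 11 other chemokines tested 1 was higher, Pf4 (1.28 ± 0.12), and 3 lower, with Ccl5 at -2.93 ± 0.59 and Cxcl14 at -2.72 ± 0.53. Of the receptors Ccr1 was higher (0.93 ± 0.20) and 3 lower, with Ccr2 at -2.09 ± 0.21 and Ccrl2 at -1.67 ± 0.26. Of 27 immediate early and heat shock genes 4 were higher, led by Klf2 (1.40 ± 0.12) and Klf4 (0.88 ± 0.17), and 2 lower, Dusp2 (-2.02 ± 0.28) and Hspa8 (-0.35 ± 0.09).

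**Figure D3:**
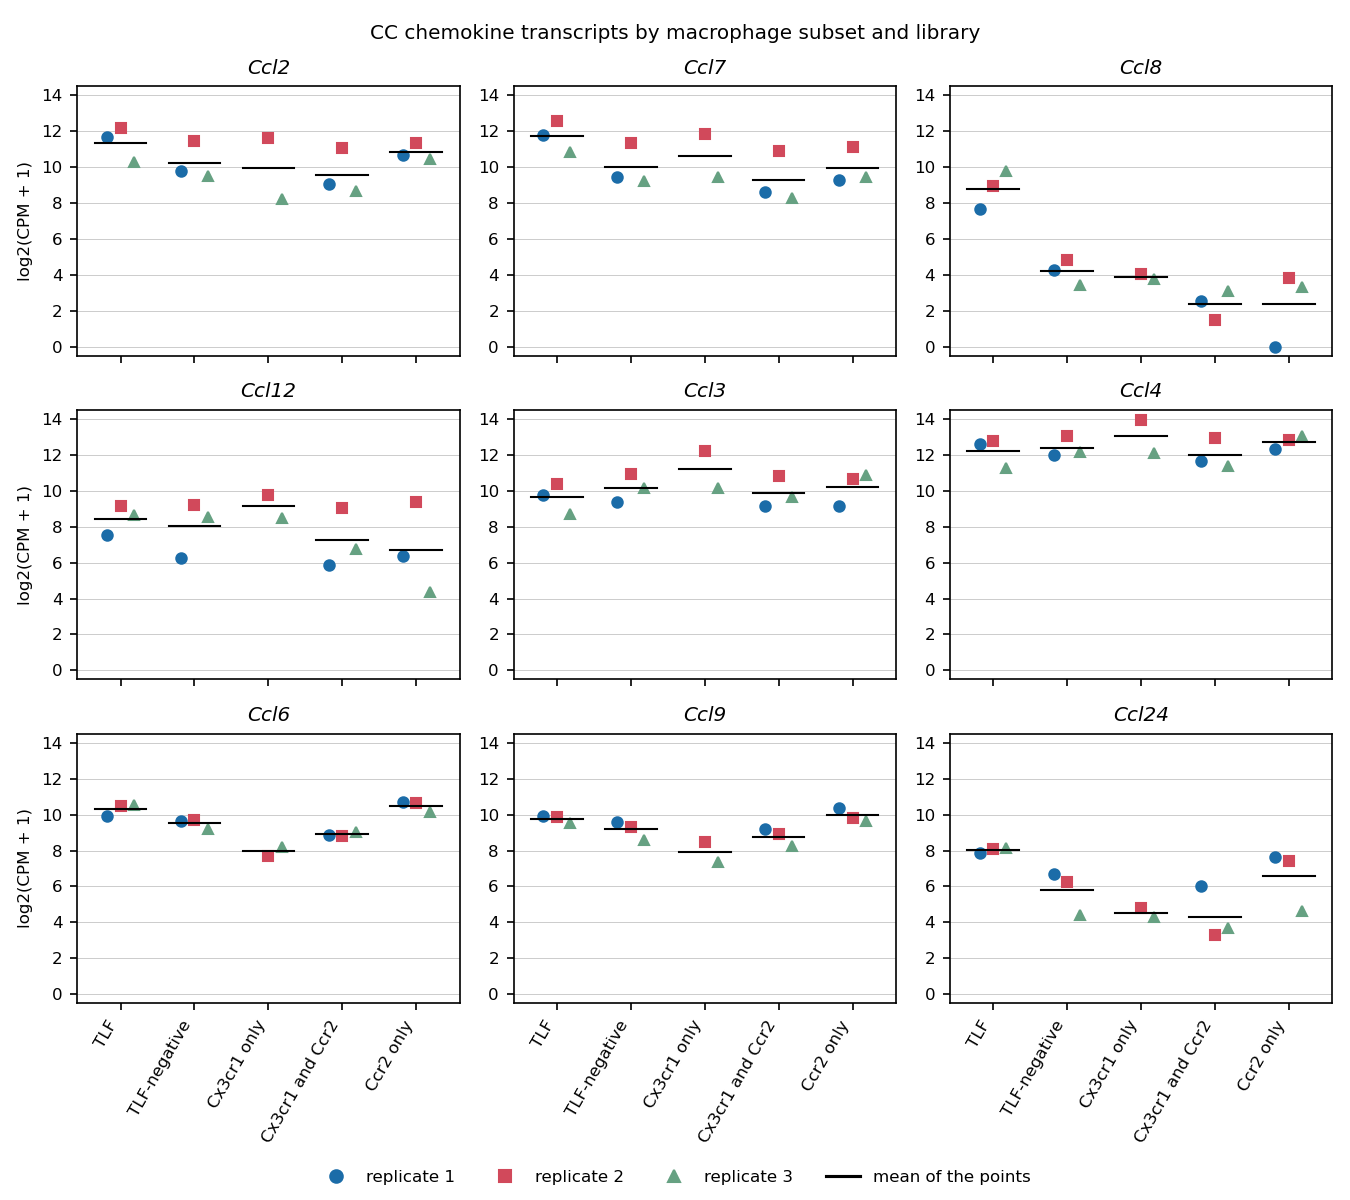
Levels of the 9 genes (panels) in 5 macrophage subsets as log2(CPM + 1) per library; symbols are libraries with at least 15 cells of the subset and black lines their means. Ccl8 stands out in TLF macrophages, and Ccl6 and Ccl9 are lowest where Cx3cr1 is present without Ccr2.

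Macrophages without TLF transcripts were further split by Cx3cr1, the fractalkine receptor of tissue macrophages, and Ccr2, which monocyte-derived macrophages carry. Cx3cr1 without Ccr2 was found in 11, 37 and 64 cells and Ccr2 without Cx3cr1 in 26, 101 and 62, so the comparison rests on replicates 2 and 3. Of the 8 members tested 2 were lower in Cx3cr1 macrophages and 0 higher, where 4.5% of 5291 genes were called and 2.12% were lower. Ccl6 was at 209 and 293 CPM in Cx3cr1 macrophages and at 1594 and 1144 CPM in Ccr2 macrophages of replicates 2 and 3 (-2.38 ± 0.28, adjusted p 0.000175, edgeR). Ccl9 was at 349 and 166 CPM against 911 and 800 CPM (-1.77 ± 0.29, adjusted p 0.00215). Neither gene's libraries overlapped, which with 2 libraries a subset was so for 43.4% of all genes tested. Monocyte markers moved with these 2 genes: their sum was 112 and 92.3 CPM in Cx3cr1 macrophages, with 6 and 7 of 12 markers found and Chil3, Ly6c2 and Vcan at 0 in both libraries, and 1359 and 971 CPM in Ccr2 macrophages, with all 12 found. Macrophage markers summed to 28565 and 39950 CPM against 14950 and 14281 CPM, and the part of monocyte-like cells in the difference was not tested. When cells were thinned to 1000 UMIs, which left 3 genes called over all, neither was called (adjusted p 0.0737 and 0.217), and Ccl9 was not called without the block (0.0561).

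Ccl12 was at 876 and 361 CPM in Cx3cr1 macrophages against 652 and 19.7 CPM (1.85 ± 0.55, adjusted p 0.0721), and Ccl24 at 27.1 and 18.5 against 170 and 24.1 CPM (-1.68 ± 0.48, adjusted p 0.0637). Neither passed the test, but both did under the stricter class gate (adjusted p 0.0105 and 0.0208) and with no filter on low counts. Ccl2, Ccl7, Ccl3 and Ccl4 had log2 fold changes of -0.88 ± 0.42, 0.42 ± 0.21, 0.49 ± 0.38 and 0.13 ± 0.31, with adjusted p from 0.332 to 0.917. Of these, Ccl2 was called lower with no filter on low counts. The 2 libraries differed for Ccl3, which was at 4760 CPM in Cx3cr1 macrophages of replicate 2 but at 1147 CPM in replicate 3, on either side of the Ccr2 values of 1585 and 1887 CPM. Ccl8 had 10 and 16 UMIs in the 2 subsets and was not tested. Retnla, an alternative activation gene, was lower in Cx3cr1 macrophages (-6.38 ± 0.27) and Stab1 (2.14 ± 0.33) and Cd163 (1.73 ± 0.30), scavenger receptors, were higher. Il6 was lower (-3.08 ± 0.53), while Jun (1.63 ± 0.35) and Fos (1.503 ± 0.27) were among 6 immediate early and heat shock genes higher in Cx3cr1 macrophages, with 0 lower.

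The other cells without TLF transcripts held both receptors or neither. Macrophages with both Cx3cr1 and Ccr2, 56, 91 and 120 cells, had Ccl6 at 466, 443 and 517 CPM, between the 2 single-receptor subsets in replicates 2 and 3. Macrophages with neither numbered 225 and 52 in replicates 2 and 3 and had Ccl12 at 492 and 3021 CPM, the latter the highest Ccl12 level of any subset. The next highest was 876 CPM in the Cx3cr1 macrophages of replicate 2, so this value is that of 1 library.

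Detection was compared at equal depth, after each cell had been thinned to 1000 UMIs. Ccl6 and Ccl9 were found at the most similar shares across libraries among the frequent members. Ccl6 was found in 50.0%, 53.5% and 46.1% of macrophages and Ccl9 in 53.3%, 50.6% and 37.3%. Ccl2 was found in 39.3%, 76.9% and 25.3%, Ccl7 in 45.3%, 75.5% and 26.5%, Ccl4 in 53.7%, 80.3% and 33.4%, and Ccl3 in 27.1%, 60% and 20%. These 4 were highest in replicate 2 and lowest in replicate 3, as was Ccl6 over a smaller range. Leaving out cells under 2000 UMIs brought replicate 2 to 61.9% for Ccl2, 59.7% for Ccl7, 66.4% for Ccl4 and 45.8% for Ccl3, still the highest library for each.

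Ccl8 was found in 13.1%, 15.9% and 15.4% of macrophages, Ccl24 in 15.9%, 11% and 11.5% and Ccl12 in 11.2%, 27.4% and 13.1%. Before thinning, median depths were 8858, 6636 and 6214.5 UMIs in ILC2 and 13015, 11654 and 9981 UMIs in monocytes. After it, ILC2 gave mean shares from 0.19% for Ccl12 to 5.65% for Ccl4. The parts of free RNA and of the cells' own transcripts in these shares were not tested. Monocyte shares were 0.81% for Ccl12, 1.96% for Ccl24 and 2.08% for Ccl8, each from 1 of 74 monocytes, against 0.19%, 0.22% and 0.79% in ILC2, so no difference in these shares could be read at this depth. Ccl6 (71.0%) and Ccl9 (69.0%) were found in most monocytes. Without thinning, at median depths of 7280.5, 4023 and 7876.5 UMIs, Ccl6 was found in 84.6%, 78.5% and 82.4% of macrophages and Ccl8 in 21%, 26.5% and 29.2%, against ILC2 means of 6.37% and 4.26%.

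**Figure D4:**
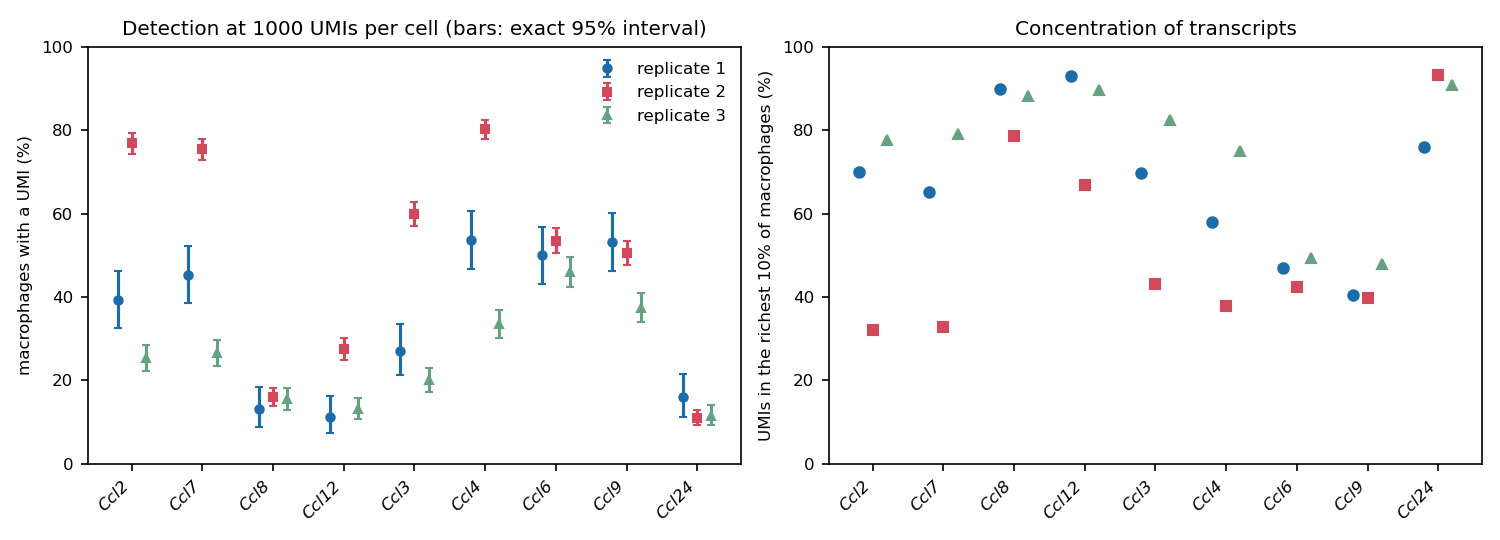
Left, share of macrophages with a UMI of each gene per library after thinning to 1000 UMIs, with exact 95% binomial intervals. Right, share of a gene's UMIs held by the 10% of macrophages richest in it. Ccl8 and Ccl24 sit low on the left and high on the right, as does Ccl12 in replicates 1 and 3. Replicate 2 is apart for Ccl2, Ccl7, Ccl12, Ccl3 and Ccl4.

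The UMIs of rarely found members were concentrated in few cells. The 10% of macrophages richest in a gene held 89.8%, 78.7% and 88.4% of the Ccl8 UMIs in replicates 1, 2 and 3, but 46.9%, 42.4% and 49.4% of those of Ccl6 and 40.4%, 39.7% and 48.0% of those of Ccl9. A gene found in little more than that share of cells must score high on this measure. Ccl4 was in most macrophages of replicate 2, yet its variance was 10.3 to 22.5 times its mean over the libraries, against 1.5 to 1.73 times for Ccl9, and 1 thinned cell held 87 Ccl4 UMIs. This ratio can rise with the level of a gene, and in replicate 2 Ccl4 had 8874 thinned UMIs and Ccl9 998. The richest 10% of macrophages held 58.1%, 37.9% and 74.9% of the Ccl4 UMIs, in replicate 2 less than for Ccl9. A macrophage held a median of 3, 5 and 2 of the 9 genes at this depth, and 5.14%, 2.27% and 15.7% of macrophages held none.

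Which members were found in the same macrophage was measured by the log2 odds ratio in each library, with 0.5 added to each count. Libraries share depth and cells share a library, so these values are descriptions. Of 36 pairs, 24 were above 0 in all 3 libraries, 3 below 0 in all and 9 mixed. The strongest pairs were chromosomal neighbours of like function, Ccl2 with Ccl7 at 3.77 ± 0.95 (SD, n = 3) and Ccl3 with Ccl4 at 3.70 ± 0.27. Of 2125 macrophages, 986 held both Ccl2 and Ccl7, 173 only Ccl2 and 178 only Ccl7, and 797 of the 986 were of replicate 2. Replicates 1 and 3 had 62 and 127 cells with both, 22 and 67 with only Ccl2 and 35 and 76 with only Ccl7.

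These 2 pairs were also linked to each other, with Ccl2 and Ccl4 at 2.79 ± 0.72, Ccl7 and Ccl4 at 2.55 ± 1.20, Ccl2 and Ccl3 at 2.19 ± 0.79 and Ccl7 and Ccl3 at 2.07 ± 0.83. Ccl6 and Ccl9 formed a weaker pair at 1.20 ± 0.32, as did Ccl8 and Ccl24 at 1.26 ± 0.31, although they lie on different chromosomes. Ccl12 went with Ccl7 (1.51 ± 0.34) but was below 0 in every library with Ccl6 (-0.58 ± 0.23) and Ccl9 (-0.35 ± 0.23), as was Ccl3 with Ccl24 (-0.89 ± 0.32). The 2 negative values of Ccl12 turned to 0.42 and 0.89 when cells were not thinned. Within TLF macrophages alone Ccl2 and Ccl7 had 3.78 ± 0.88, within negative ones 3.54 ± 1.02, and Ccl3 and Ccl4 had 3.54 ± 0.20 and 3.51 ± 0.42, so both pairs were also found inside each subset.

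**Figure D5:**
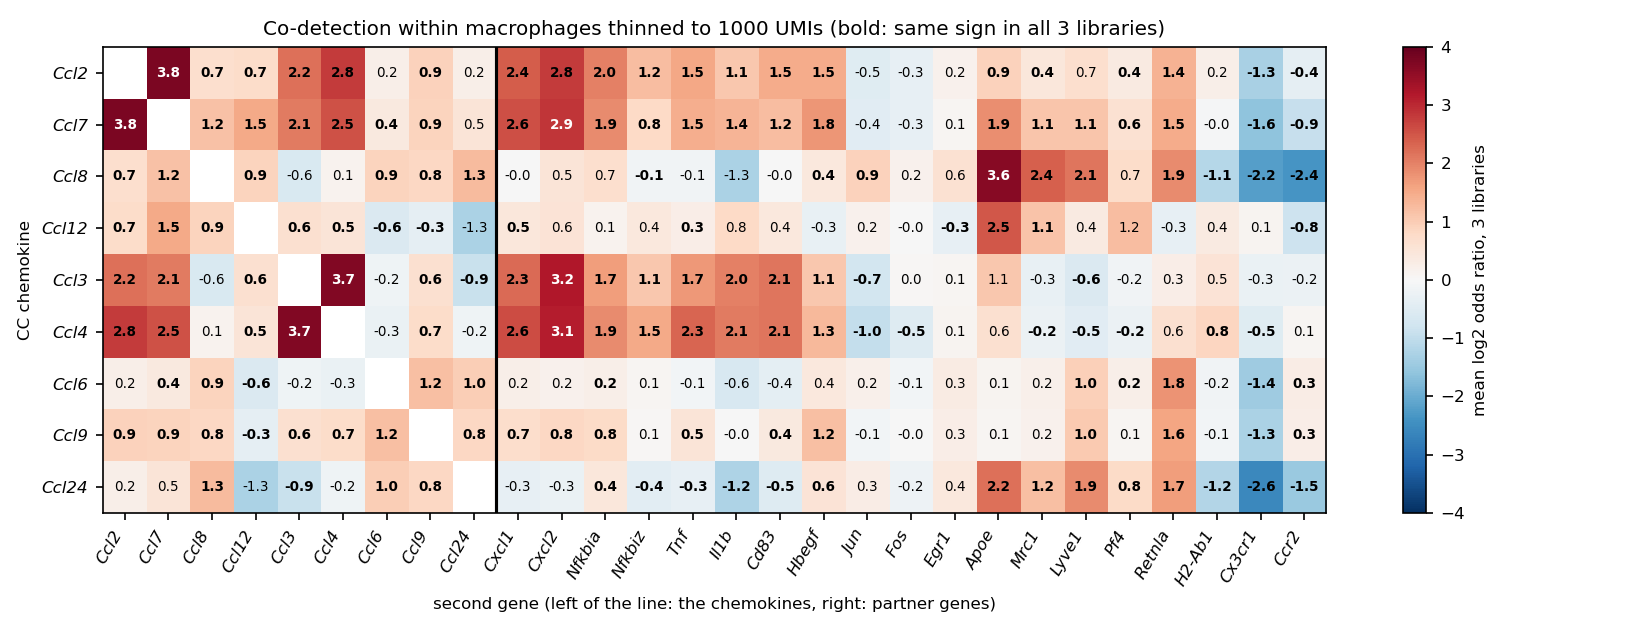
Mean log2 odds ratio over 3 libraries for finding 2 genes in the same macrophage after thinning to 1000 UMIs; rows are the 9 CC chemokines, columns the same genes and 19 partner genes, and bold numbers have the same sign in all 3 libraries. Ccl2, Ccl7, Ccl3 and Ccl4 form a block with each other and with Cxcl1, Cxcl2, Nfkbia, Tnf and Cd83, and Ccl8 and Ccl24 pair with Apoe and Lyve1.

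Partner genes separated the members in the same way. Ccl2, Ccl7, Ccl3 and Ccl4 were found with Cxcl2, which recruits neutrophils, at 2.78, 2.87, 3.19 and 3.13, with Nfkbia, the NF-kB inhibitor induced by NF-kB itself, at 2.03, 1.88, 1.68 and 1.90, and with Tnf at 1.54, 1.46, 1.73 and 2.32, all above 0 in 3 of 3 libraries. With the immediate early gene Jun the same 4 had -0.49, -0.44, -0.75 and -0.96, those of Ccl3 and Ccl4 below 0 in every library. Ccl8 was found with Apoe (3.63), Mrc1 (2.38) and Lyve1 (2.13) and apart from Ccr2 (-2.37) and Cx3cr1 (-2.20). Ccl24 shared this with Apoe at 2.19, Lyve1 at 1.89 and Cx3cr1 at -2.58, and both were found with Retnla, at 1.88 and 1.68, as were Ccl6 (1.79) and Ccl9 (1.58). Ccl12 was found with Apoe at 2.49 but its value with Retnla was -0.32 and mixed in sign.

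Across 20 class and library sums, the genes most like each member by Pearson correlation of log2(CPM + 10) were sought among 5618 genes. The sums share libraries and depth, so the r values describe these classes only. For Ccl2 they were Sqstm1 (0.94), Ccl7 (0.91) and Cd63 (0.88), and for Ccl7 they were Ccl2 (0.91), Sqstm1 (0.88) and Cd63 (0.87). Ccl3 and Ccl4 came first for each other (0.91), followed by Slc6a6 for both (0.85 and 0.83), then Tmem189 for Ccl3 (0.85) and Tank for Ccl4 (0.80).

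Ccl8 was nearest to Ednrb (0.96), Fcna (0.94) and Cd209f (0.93), and Ccl12 to Cd209f (0.98), Pf4 (0.95) and Fcna (0.95). Ccl6 was nearest to Lyz2 (0.98), the lysozyme of monocytes and macrophages, Gm34084 (0.96) and Clec4a2 (0.955), and Ccl9 to Clec4a3 (0.98), Fcrls (0.97) and Itgam (0.97). Ccl24 was nearest to Tmem106a, Cltc and Clcn5, all at 0.88. Among the members themselves, r ran from 0.10 for Ccl7 with Ccl6 to 0.95 for Ccl6 with Ccl9, and Ccl8 with Ccl12 had 0.90.

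Libraries differed in member levels within macrophages to a degree that depended on the gene. The ratio of the highest to the lowest library was 4.05 for Ccl2, 3.71 for Ccl7, 5.36 for Ccl8, 4.50 for Ccl12, 2.39 for Ccl3 and 2.52 for Ccl4, but 1.31 for Ccl6, 1.51 for Ccl9 and 1.14 for Ccl24. Replicate 2 was highest for 7 of the 9, replicate 3 for Ccl8 and replicate 1 for Ccl9. In the 640 macrophages of replicate 2 with at least 2000 UMIs Ccl2 was at 3685 CPM and Ccl4 at 7971 CPM, so these levels were not confined to its shallow cells, where they were 5427 and 7259 CPM. Cxcl2 was also highest in replicate 2, at 13568 CPM against 5668 and 4716 CPM, while Jun was lowest there at 1235 CPM against 1718 and 2421 CPM.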

How the data were processed

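UMI counts, not normalised, were deposited by the authors as 1 matrix of genes by barcodes per library, made with the Chromium 3′ kit per the labels' protocols. The submitters' processing notes name Cell Ranger 3.1 and mm10. Replicate 1 carries version 3.0.0 and the other 2 libraries 3.1.0, per the file headers, and the gene annotation release is not given in the sources used here. No barcode had under 500 UMIs.

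Total UMIs were 6777422, 13336484 and 11017170. Barcodes with at least 1000 UMIs and at most 15% mitochondrial UMIs were kept. Cells were scored for 14 marker classes, a score being the mean of scaled log levels of the markers of a class. Cells with at least 10 UMIs of C1qa, C1qb and C1qc per 10000 could be macrophages. They were classed so where the macrophage score led every class other than monocyte by 0.02 and at least 3 markers were found. The other cells took the leading class among those other than macrophage, by the same minimums. They needed no lead over the macrophage score. Monocytes and type 2 dendritic cells needed no lead over each other. The lead and the C1q limit were set after cell numbers had been seen, and 23, 109 and 76 cells stayed without a class. Doublets were kept in the main analysis and scored with scrublet in scanpy 1.11.5; 6, 64 and 32 barcodes of highest score were left out as an alternative.

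Counts were summed per class and library (at least 15 cells) and tested with edgeR 4.0.16 (R 4.3.3; filterByExpr, TMM, quasi-likelihood, two-sided, Benjamini-Hochberg over all genes), with the library as a block because each library gives both classes. Standard errors are the log2 fold change over the root of F. Folds are given where both classes have over 3 UMIs. The test was tried on simulated counts with known changes. Cells were thinned to 1000 UMIs for detection and co-detection; intervals are exact (Clopper-Pearson) and cover counting error only. The 9 members, the gene lists and the tests were chosen with earlier results of these data known. Named genes are all 9 members, the 2 highest and 2 lowest called genes of a list, and the 3 likest genes, leaving out gate markers. Alternatives were DESeq2 1.42.0 and its size factors, other filters, gates, depths and limits, no block, and each library left out; leaving out shared barcodes and leaving out cells under 2000 UMIs were added after the data had been seen. Coordinates are from GENCODE on GRCm38, sequences from RefSeq on GRCm38.p6.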

Additional observations from a re-analysis of the deposited data

How the results depend on the processing

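Of 600 values of single members under alternatives, 561 kept their direction and side of the threshold. The number of called genes depended on the setting. With cells thinned to 1000 UMIs, which leaves fewer counts, it was 248 against monocytes (1288 in the main analysis), 575 for TLF (1731), 3 for Cx3cr1 against Ccr2 (238), 830 against type 2 dendritic cells (3472) and 1762 against ILC2 (4902). Without the replicate block it was 809, 479, 116 and 2103 in the first 4 of these, and no call of a member against ILC2 changed. By DESeq2 it was 821, 935 and 39 in the first 3. The stricter gate gave 681 against monocytes, from 2 libraries. For Cx3cr1 against Ccr2 the count was 365 without a filter on low counts and 151 without the highest scrublet scores. Leaving out a library, which leaves 2, gave 653 to 1199 against monocytes and 223 to 3086 for TLF, and within 1.5 times of the main count 2565 to 3704 against type 2 dendritic cells and 4135 to 5238 against ILC2; for Cx3cr1 against Ccr2 no library could be left out, since no residual degrees of freedom remain. Signs turned for Ccl12 in TLF macrophages without the block (-0.0647), thinned (-0.0181) and without replicate 1 (range over libraries left out -0.194 to 0.434), for Ccl4 there without replicate 3 (-0.767 to 0.0542), for Ccl7 (-0.42) and Ccl4 (-0.0066) in Cx3cr1 macrophages when thinned, and for Ccl12 with Ccl6 (0.42) and Ccl9 (0.89) when not thinned; the cause was not tested. Limits: 16 to 41 monocytes a library set the precision of that comparison, shares of cells depend on depth (Ccl8 in 14.8% thinned and 25.6% not thinned), and replicate 2 holds most shallow macrophages.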
